A study of Mus with 6 samples.

Results

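The genes examined here are the nuclear genes for mitochondrial ribosomal proteins, chosen by symbol as Mrpl or Mrps followed by a digit, without pseudogenes. They were 78 of the 20893 genes in the deposited expression table, 49 named for the large subunit (Mrpl) and 29 named for the small subunit (Mrps). Mitochondria translate a small set of mRNAs from their own genome on a ribosome of their own, and those mRNAs all encode core subunits of the respiratory chain and of ATP synthase. The RNA of that ribosome is made inside the organelle, while its proteins are encoded in the nucleus, made in the cytosol and imported. Some of these proteins have bacterial homologues, and others were gained in the mitochondrial line.

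The series compared cardiac microvascular endothelial cells of Ccl28 knockout (KO) mice with those of wild-type (WT) mice, with 3 libraries in each group. Ccl28 encodes a chemokine. In both genotypes the left coronary artery had been ligated, an operation that causes a myocardial infarction, and magnetic beads were used to take the cells that carry CD31, an endothelial surface protein, and lack CD45, a leukocyte surface protein. Neither the strain, the sex, the age, the time after surgery nor the kind of knockout allele is given in the sources used here. The genotype field of KO replicates 3 and 4 names Ccl29 and Ccl30, whereas their titles name Ccl28; grouping went by the titles. No source used here states that replicates came from separate mice, and the p-values therefore refer to the spread among these 6 samples, part of which may be technical.

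Whole reads recovered from the deposited values came to 37780513, 37181289 and 36004457 in KO replicates 2, 3 and 4, against 40500067, 39104282 and 39431772 in WT replicates 2, 3 and 4. Ccl28 had 0 reads in each KO library and 16, 11 and 24 reads in the WT libraries, which were all above the KO libraries (exact two-sided permutation test, p = 0.1, the smallest that 3 against 3 can give). Summed FPKM (fragments scaled to transcript length and to the size of the library) of the 8 endothelial markers was 3660 to 3970 in KO libraries, against 3880 to 3960 in WT libraries, with 2 of the 8 higher in KO and 2 lower. Markers of other cells also moved with genotype. The summed FPKM of leukocyte markers was 104 to 129 in KO and 39.9 to 69 in WT (7 of 9 tested were higher in KO), with Ptprc, the gene of CD45, at 1.01 to 1.41 FPKM in KO and 0.871 to 1.71 FPKM in WT. The sum of erythroid and platelet markers was 399 to 518 in KO and 244 to 315 in WT (4 of 5 higher). Fibroblast and mural markers summed to 234 to 360 FPKM in KO and 340 to 442 FPKM in WT (6 of 7 tested lower in KO), and cardiomyocyte markers to 254 to 297 FPKM in KO and 184 to 270 FPKM in WT (1 of 9 higher, 1 lower). Among all 10806 genes tested, 18.3% were higher in KO and 25.8% were lower. Calls also followed transcript length, as given below, and the marker counts were not set against genes of like length. No listed marker was at 0 in every library, and the part of cells other than endothelial cells in the results that follow was not tested. In bulk samples, fewer cells of a type and less RNA per cell cannot be told apart.

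Most mitochondrial ribosomal protein mRNAs of both subunits were higher in KO than in WT cells, by modest amounts, and fewer were when a trend with transcript length was removed. By limma on log2(FPKM + 1), 57 of the 78 genes were higher in KO at an adjusted p under 0.05 and 0 were lower, also at an unadjusted p under 0.05. Among all 10806 genes tested, 18.3% were higher in KO and 25.8% were lower. All 78 genes passed the filter on low values, which asked for FPKM of 1 or more in 3 or more libraries. The ratio of mean FPKM, KO over WT, lay between 1.03 and 1.64 with a median of 1.34; it was at least 1.5 for 10 genes (7 large, 3 small) and under 1.2 for 18 (13 large, 5 small). The median log2 fold change was 0.38 over the 78 genes and -0.03 over all genes tested. With median-ratio scaling of the libraries, 67 members were higher and 0 lower, against 23.2% higher and 23.0% lower of all genes. With a trend of expression on transcript length removed from each library, 22 were higher and 2 lower, with a median log2 fold change of 0.10, against 9.28% higher and 9.42% lower of all genes. In the authors' deposited table, 63 of the 78 had a positive log2 fold change at a q under 0.05 and 0 a negative one, beside 21.1% of all genes tested with a positive and 23.0% with a negative one.

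The highest and lowest values of the 78 genes were counted by library, without the same counts over all genes. KO replicate 4 held the highest value of 49 genes, KO replicate 2 of 19, KO replicate 3 of 8, and WT replicate 2 of 2. Of the KO libraries, replicate 4 also had the steepest fall of FPKM with transcript length (slope of -0.155, described below). WT replicate 3 held the lowest value of 48 genes, WT replicate 4 of 22, WT replicate 2 of 6, and KO replicate 3 of 2. Of the WT libraries, however, replicate 4 had the steepest climb with length (slope of 0.135), against 0.108 in replicate 3. Whether the slopes bear on these counts was not tested. Each KO library was above each WT library for 62 genes (42 large, 20 small), and the reverse held for 0. The same separation was seen in 22.8% of all genes tested with KO higher and in 31.9% with KO lower.

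**Figure D1:**
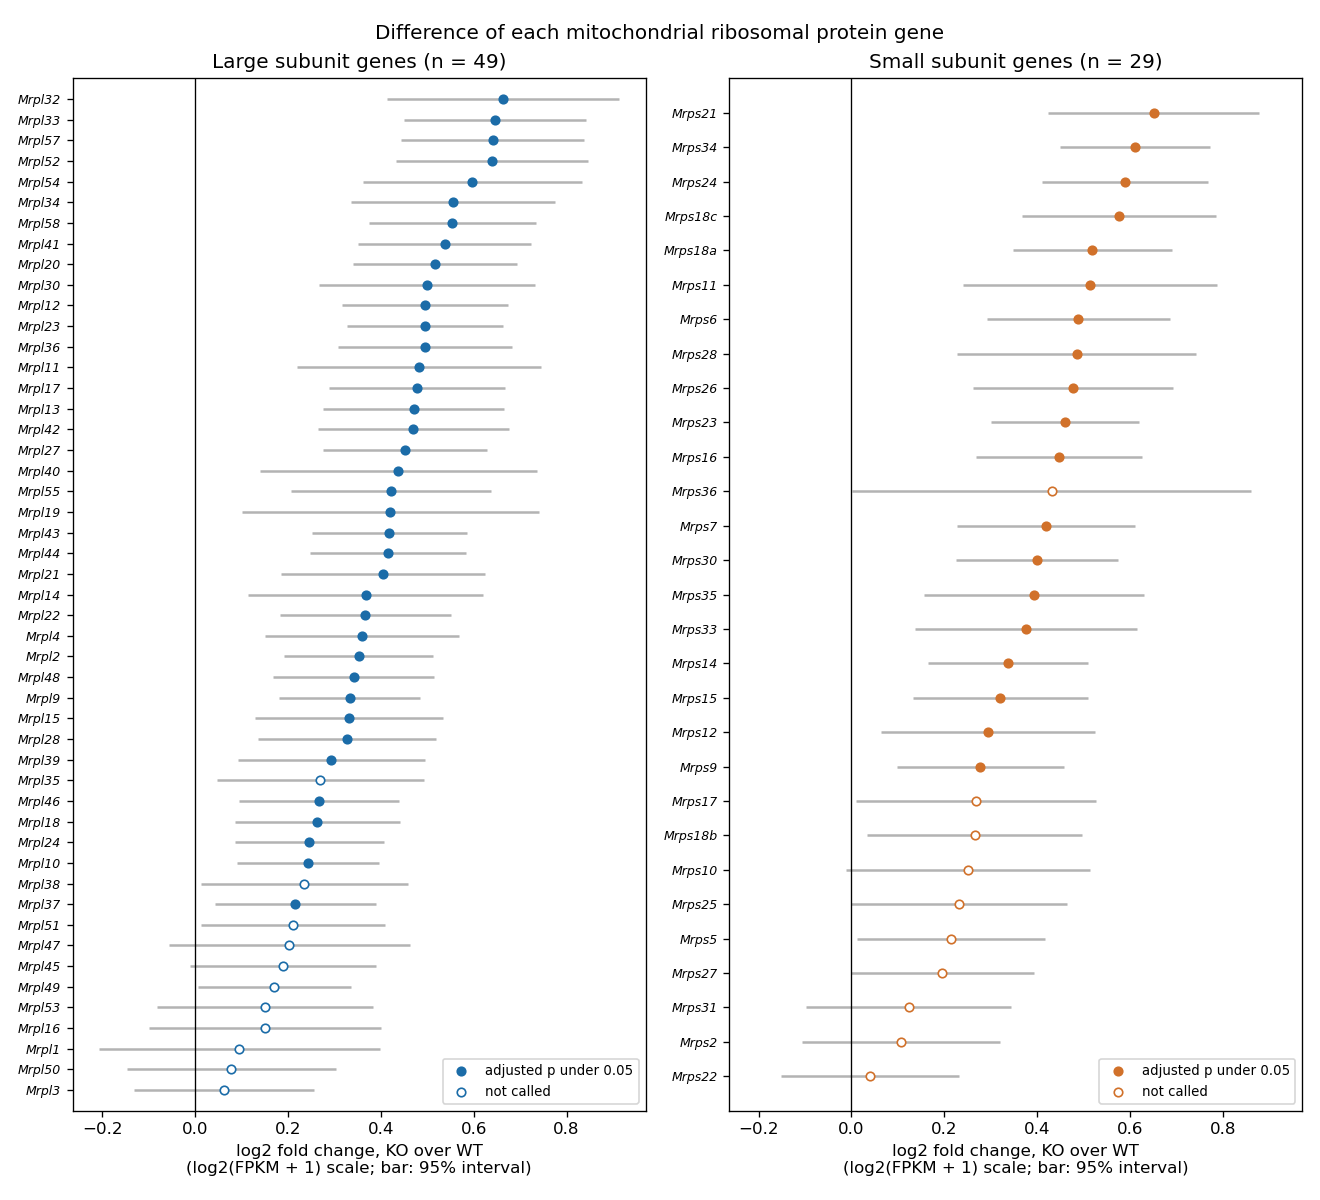
Log2 fold change of each gene (KO over WT, from log2(FPKM + 1) values) for the 49 large subunit genes (left) and the 29 small subunit genes (right), with 95% intervals from limma; filled points have an adjusted p under 0.05. Every point lies above 0 on the deposited scale, while 58 of the 78 do with the length trend removed, and 38 large and 19 small subunit genes are filled.

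Of the 49 large subunit genes, 38 (77.6%) rose in KO and 11 did not pass the test; their median log2 fold change was 0.37, with quartiles of 0.25 and 0.49. Mrpl52, a protein found in mitochondrial but not bacterial ribosomes, and Mrpl33, which has a bacterial homologue, had the highest levels of the subunit. Mrpl52 had 141, 140 and 161 FPKM in KO replicates 2, 3 and 4, against 100.3, 83.0 and 99.5 FPKM in WT replicates 2, 3 and 4. Its KO libraries stood apart from its WT libraries, with a log2 fold change of 0.64 (SE 0.09, limma adjusted p = 0.00084). Mrpl33 had 119, 112 and 137 FPKM in KO libraries, against 83.1, 73.8 and 76.7 FPKM in WT libraries, with a log2 fold change of 0.65 (SE 0.09, limma adjusted p = 0.000696). Mrpl33 lies on chromosome 5 at 31613951 to 31622644, and Mrpl52 on chromosome 14 at 54426909 to 54429750 (GRCm38.p6).

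Mrpl57 showed the greatest ratio of mean FPKM of the 78 genes, 1.64. This mitochondria-specific protein had 11.2, 10.96 and 11.6 FPKM in KO libraries, against 6.25, 7.60 and 6.79 FPKM in WT libraries, and rose with a log2 fold change of 0.64 (limma adjusted p = 0.000716). The KO libraries differed among themselves by less than the WT libraries did. Mrpl58, a peptidyl-tRNA hydrolase that frees stalled ribosomes and is itself built into the large subunit, had 16.9, 18.6 and 19.9 FPKM in KO libraries, against 12.5, 12.3 and 11.96 FPKM in WT libraries (log2 fold change 0.55, limma adjusted p = 0.00085). Here the lowest KO library lay well above the highest WT library.

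Mrpl12 forms the flexible stalk that recruits translation factors, and in human cells it is also known to bind the mitochondrial RNA polymerase. It averaged 73.2 ± 1.35 FPKM in KO and 51.8 ± 4.98 FPKM in WT libraries (SD, n = 3 each), a log2 fold change of 0.50 (limma adjusted p = 0.00128), which with the length trend removed was 0.10 and did not pass (adjusted p = 0.406). Further proteins with bacterial homologues moved by similar amounts. Mrpl23 averaged 20.8 ± 0.839 FPKM in KO and 14.5 ± 0.806 FPKM in WT (log2 fold change 0.49, limma adjusted p = 0.00101), and Mrpl20 had 46.6, 43.4 and 47.6 FPKM in KO against 34.0, 29.03 and 32.4 FPKM in WT (0.52, adjusted p = 0.00102). With the length trend removed Mrpl23 passed (0.30, adjusted p = 0.0145) and Mrpl20 did not (0.15, adjusted p = 0.118). Mrpl42, without a bacterial homologue, had 66.8, 78.2 and 80.5 FPKM in KO libraries and 57.9, 48.9 and 55.0 FPKM in WT libraries, again without overlap (0.47, limma adjusted p = 0.00327; -0.02 and adjusted p = 0.905 with the length trend removed).

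At the other end stood Mrpl1 and Mrpl3. Mrpl1, a protein of the stalk next to the exit site for tRNA, had 2.61, 2.23 and 3.25 FPKM in KO libraries and 3.00, 2.08 and 2.29 FPKM in WT libraries. The groups overlapped, and the 95% interval of its log2 fold change reached from -0.21 to 0.40. Mrpl3, a core protein close to the peptidyl transferase centre, had 4.55, 4.12 and 4.44 FPKM in KO libraries and 4.00, 4.14 and 4.28 FPKM in WT libraries, again with overlap, and an interval from -0.13 to 0.26. These intervals leave room for differences as large as those of some genes that passed the test.

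Of the 29 small subunit genes, 19 (65.5%) rose in KO and 10 did not pass the test; their median log2 fold change was 0.39, with quartiles of 0.27 and 0.48. Mrps34, a mitochondria-specific protein whose loss in mice is known to destabilise the small subunit, had 46.7, 49.8 and 51.6 FPKM in KO libraries, against 30.6, 34.0 and 31.4 FPKM in WT libraries. Its groups were far apart for their spread (log2 fold change 0.61, SE 0.07, limma adjusted p = 0.000522). Removal of the length trend left it short of the threshold (0.19, adjusted p = 0.101). Mrps21, the counterpart of a bacterial small subunit protein, was the most highly expressed of the subunit, with 93.0, 99.3 and 115 FPKM in KO libraries against 69.7, 56.8 and 68.1 FPKM in WT libraries (0.65, limma adjusted p = 0.00111). Mrps24, whose bacterial counterpart lies near the mRNA entry, had 63.1, 65.5 and 75.3 FPKM in KO and 46.5, 43.5 and 44.2 FPKM in WT (0.59, limma adjusted p = 0.000699). Mrps23, which is mitochondria-specific, had 30.4, 28.1 and 29.9 FPKM in KO and 22.2, 20.4 and 20.9 FPKM in WT (0.46, limma adjusted p = 0.00109).

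Paralogues of one bacterial small subunit protein are encoded in the mouse genome, and despite their names they sit in different places. Mrps18c and Mrps18b occupy the small subunit, whereas Mrps18a is part of the large one. Mrps18c had 76.7, 82.2 and 89.7 FPKM in KO libraries, against 62.5, 50.8 and 52.8 FPKM in WT libraries, and rose (log2 fold change 0.58, limma adjusted p = 0.00129). Mrps18a also rose, with 42.3, 46.9 and 48.2 FPKM in KO against 33.5, 31.1 and 30.3 FPKM in WT (0.52, limma adjusted p = 0.000884), but not with the length trend removed (0.09, adjusted p = 0.36). Mrps18b had the lowest level of these paralogues, 9.31, 8.95 and 8.09 FPKM in KO and 8.25, 6.88 and 6.36 FPKM in WT; its groups overlapped and it did not pass the test (0.27, limma adjusted p = 0.0612). It passed with median-ratio scaling (adjusted p = 0.0278) and without WT replicate 2 (adjusted p = 0.0202). Taking out the trend with length left Mrps18b at 0.02, far from passing (limma adjusted p = 0.911).

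Mrps36, named as a ribosomal protein, is now known as a subunit of the oxoglutarate dehydrogenase complex of the citric acid cycle. It had 22.4, 20.5 and 18.6 FPKM in KO libraries and 19.0, 9.93 and 17.3 FPKM in WT libraries, with WT replicate 3 far below the other five. Its log2 fold change was 0.43 (95% interval 0.0003 to 0.86, limma adjusted p = 0.0956), with 278 to 605 recovered reads per library. It was 0.16 without WT replicate 3 (adjusted p = 0.216) and 0.60 without WT replicate 2 (adjusted p = 0.0335). Removal of the length trend gave -0.05 (adjusted p = 0.893). The small subunit genes furthest from passing were Mrps22 and Mrps2. Mrps22, a mitochondria-specific protein, had 8.40, 7.70 and 9.05 FPKM in KO and 8.30, 7.78 and 8.26 FPKM in WT, a log2 fold change of 0.04 (95% interval -0.15 to 0.23). Mrps2, a core protein with a bacterial homologue, had 9.10, 8.62 and 9.45 FPKM in KO and 9.53, 7.66 and 7.91 FPKM in WT, and for both genes the groups overlapped.

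**Figure D2:**
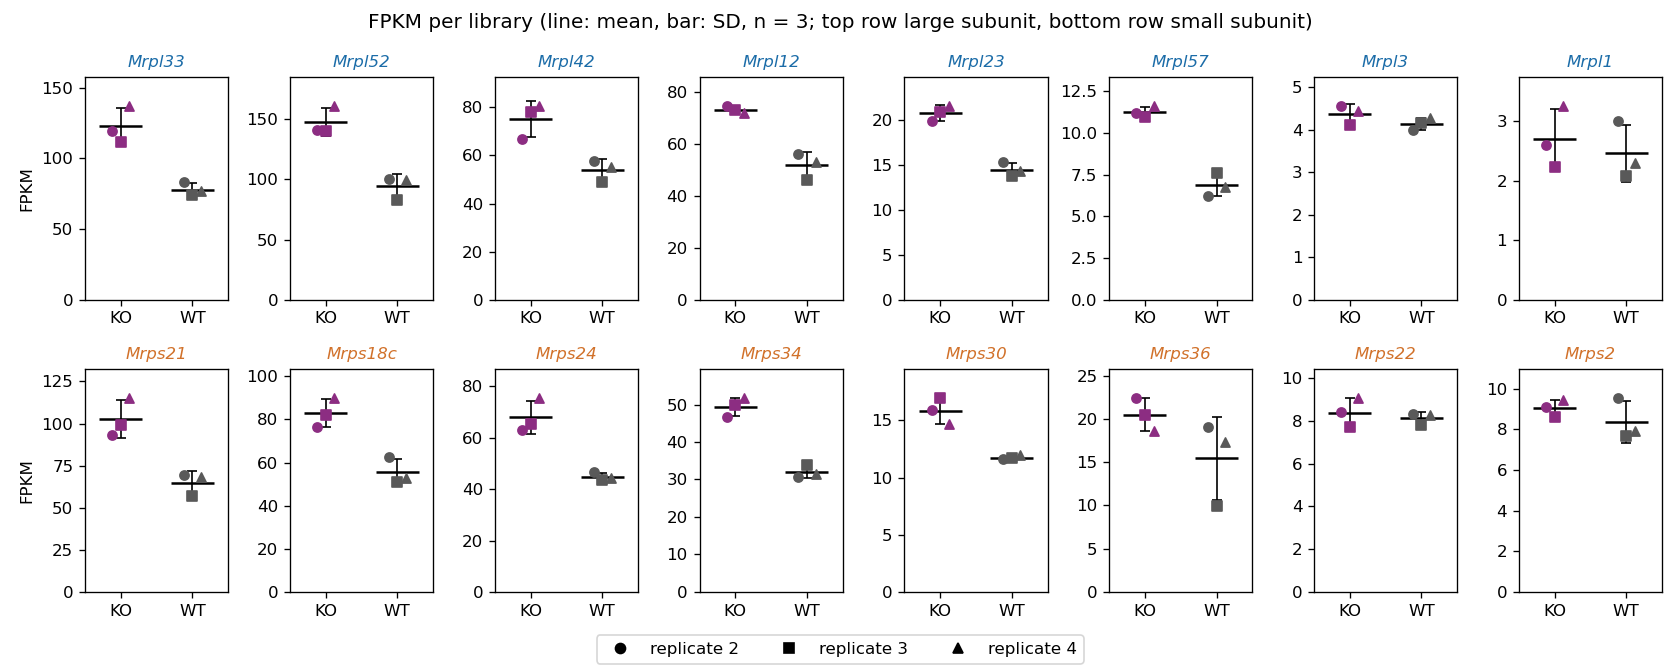
FPKM in each library for 8 large subunit genes (top row) and 8 small subunit genes (bottom row), KO left and WT right; lines are means and bars SD over 3 libraries, and marker shapes give the replicate number. The groups are apart for Mrpl33, Mrpl52, Mrpl57 and Mrps34 and overlap for Mrpl1, Mrpl3, Mrps22 and Mrps2.

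Large and small subunit genes were then set against each other. The share of genes higher in KO was 77.6% for the large and 65.5% for the small subunit, while the medians of the log2 fold change, 0.37 and 0.39, stood in the opposite order. The order of the medians turned under several settings, such as quantile normalization (0.42 large, 0.40 small), without WT replicate 4 (0.38 large, 0.36 small) and with the length trend removed (0.13 large, 0.07 small). It also turned with the assignment of 3 genes: with Mrps18a and Mrps30 counted in the large subunit, where their proteins sit, and Mrps36 left out, 40 of 51 large subunit genes were higher with a median of 0.40, and 17 of 26 small subunit genes with a median of 0.36. Summed over its genes, the large subunit had 1434, 1410 and 1572 FPKM in KO libraries, against 1155, 1016 and 1066 FPKM in WT libraries. The small subunit had 814, 825 and 898 FPKM in KO libraries, against 657, 571 and 601 FPKM in WT libraries. For both subunits all KO libraries were above all WT libraries. The ratio of the sums, large over small, was 1.76, 1.71 and 1.75 in KO and 1.76, 1.78 and 1.77 in WT. It averaged 1.74 ± 0.0276 in KO and 1.77 ± 0.0108 in WT (SD, n = 3 each), a gap close to the KO spread, and the ranges overlapped. Taken as a share of all FPKM in a library, the 78 genes came to 0.465, 0.458 and 0.482% in KO, against 0.446, 0.375 and 0.415% in WT, with total FPKM of 483543, 487583 and 512369 in KO and 406346, 423899 and 401493 in WT.

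**Figure D3:**
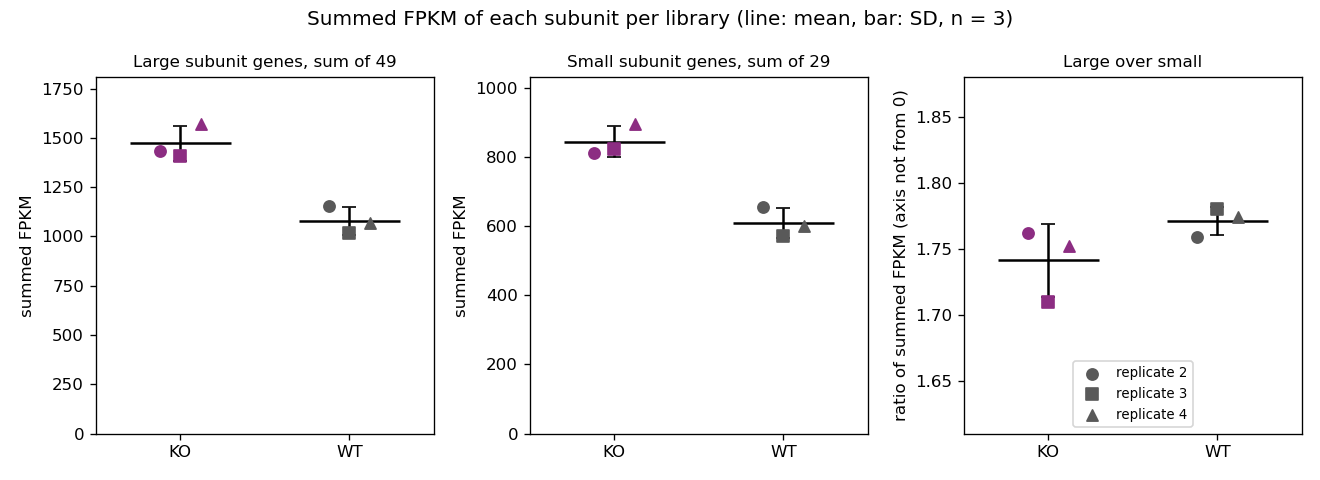
Summed FPKM of the 49 large subunit genes (left) and of the 29 small subunit genes (centre), and their ratio (right, axis not from 0), in each library, KO left and WT right; lines are means and bars SD over 3 libraries. Both sums are higher in every KO library than in any WT library, and the ratios of the groups overlap.

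The genes were also divided by origin. Of the 47 genes with a bacterial homologue, 37 were higher in KO, with a median log2 fold change of 0.37. Of the 31 without one, 20 were higher, with a median of 0.39. In the large subunit these counts were 24 of 29 with a homologue and 14 of 20 without one, and in the small subunit 13 of 18 and 6 of 11. Among all genes tested 18.3% were higher. With the length trend removed, 14 of the 47 were higher and 0 lower (median 0.13). Of the 31, 8 were then higher and 2 lower (median 0.07), beside 9.28% of all genes higher and 9.42% lower. The 31 include Mrps36.

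Expression level and transcript length both moved with the size of the difference. Across the 78 genes the Spearman correlation of mean FPKM with log2 fold change was 0.49 and that of transcript length with log2 fold change was -0.41; the genes share libraries, so these are descriptions. Length here is that of the gene model implied by the deposited FPKM and the recovered reads, and the isoforms present in these cells were not measured. Over all 10806 genes the correlation of length with log2 fold change was -0.72. In each KO library FPKM fell with length relative to the average library (slopes of -0.0985, -0.0911 and -0.155 log2 units per log2 of length) and in each WT library it climbed (slopes of 0.101, 0.108 and 0.135), so genotype and this trend cannot be told apart. Mitochondrial ribosomal protein genes are short: their implied length was 412 to 8707 nt with a median of 1556 nt (1686 nt large, 1216 nt small), against a median of 3429 nt over all genes tested, and 67 of the 78 were below that median.

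Set against all genes of the same length class, the picture depended on the class. Up to 1000 nt, 18 of 21 members were higher in KO (9 of 11 large, 9 of 10 small; median log2 fold change 0.49), beside 72.3% of all genes tested in that class (1.47% lower; median 0.48). From 1001 to 2000 nt the members higher in KO were 21 of 30 (median 0.34), beside 48.4% of all genes (1.89% lower; median 0.27). Over 2000 nt they were 18 of 27 (15 of 20 large, 3 of 7 small; median 0.33), beside 6.92% of all genes higher and 33.4% lower (median -0.13). In this class the median length was 3000 nt for the members and 4286 nt for all genes tested, so lengths were not matched. Short members thus had differences near those of other short genes. Many members over 2000 nt by implied length were higher, in a class where most called genes were lower. Whether the transcripts of these members are that long in these cells was not tested.

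The 22 members higher in KO with the length trend removed were 16 of the large and 6 of the small subunit. The median log2 fold change was then 0.13 for the large and 0.07 for the small subunit, and 58 of the 78 values were positive and 20 negative. Of the 22, 19 were over 2000 nt long, which is 19 of the 27 members in that class (15 of 20 large, 4 of 7 small), beside 10.4% of all genes of that length. Up to 1000 nt, 0 members were higher and 1 was lower, beside 3.98% of all genes higher and 6.63% lower. Between these classes, 3 members were higher and 1 was lower, beside 6.41% of all genes higher and 6.20% lower. Without KO replicate 4 or without WT replicate 4 the 22 became 13, and without KO replicate 4 the 19 became 12; 11 of the 22 passed whichever library was left out. Among the members, values with the trend removed climbed with length (Spearman 0.70 over 78 genes), whereas as deposited they fell with it (-0.41). The removal used the implied length, and the isoforms present in these cells were not measured. With the boundary at 3000 nt, 11 of 13 members were higher with the trend removed, beside 11.6% of all genes.

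Mrpl57 and Mrpl58 kept most of their difference with the length trend removed, at 0.59 and 0.49 on the log2 scale (limma adjusted p = 0.00575 and 0.00545), whereas Mrpl33, Mrpl52, Mrps21 and Mrps18c came to 0.06, 0.03, 0.09 and 0.01 and did not pass. Mrpl3 passed only with the trend removed (0.45, limma adjusted p = 0.00992). The highest value belonged to Mrpl17, which was singled out after its values were seen. It had 16.3, 15.5 and 16.0 FPKM in KO libraries against 12.4, 10.3 and 10.9 FPKM in WT libraries, without overlap, at an implied length of 6712 nt. Its log2 fold change was 0.48 as deposited and 0.79 with the trend removed (limma adjusted p = 0.00197 and 0.00127). The 2 genes lower with the trend removed were Mrps22 (-0.30, limma adjusted p = 0.0213) and Mrpl53 (-0.36, adjusted p = 0.0125), the second named for this reason; as deposited Mrpl53 had 44.6, 40.5 and 55.0 FPKM in KO and 43.6, 40.6 and 40.7 FPKM in WT. Without WT replicate 4 neither was called (adjusted p = 0.0924 for Mrps22 and 0.0512 for Mrpl53), and the call of Mrps22 was also lost without KO replicate 2, KO replicate 3 or KO replicate 4 (0.0532, 0.0559 and 0.0502).

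**Figure D4:**
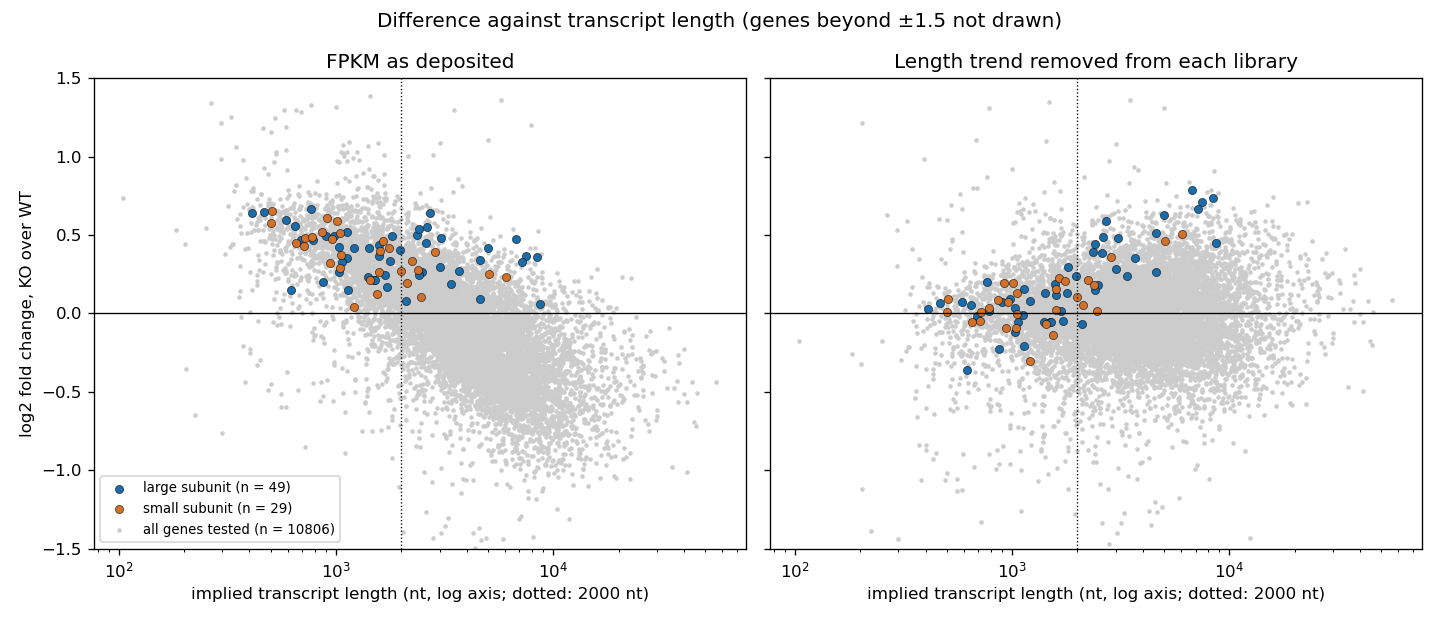
Log2 fold change, KO over WT, against implied transcript length (log axis) for large subunit genes, small subunit genes and all 10806 genes tested, as deposited (left) and with the length trend removed from each library (right); the dotted line marks 2000 nt. As deposited the members over 2000 nt (median length 3000 nt) have a median of 0.33, against -0.13 over all genes in that class (median length 4286 nt). As deposited, the members of each length class lie within the range of the other genes of that class.

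Some proteins of the mitochondrial ribosome carry other names. Gadd45gip1, of the large subunit, averaged 22.2 ± 1.86 FPKM in KO and 14.9 ± 1.83 FPKM in WT (SD, n = 3 each; log2 fold change 0.55, limma adjusted p = 0.00212). Chchd1 and Aurkaip1, both of the small subunit, also rose, with 68.1 ± 3.57 FPKM in KO and 46.8 ± 6.51 FPKM in WT for Chchd1 and 52.3 ± 6.55 FPKM in KO and 37.1 ± 1.80 FPKM in WT for Aurkaip1 (0.54 and 0.48, adjusted p = 0.00249 and 0.00324). Gadd45gip1 also passed once the length trend was taken out (0.33, limma adjusted p = 0.0218), while Chchd1 and Aurkaip1 did not (0.01 and 0.17, adjusted p = 0.922 and 0.134). Dap3, a GTP-binding protein, and Ptcd3, a pentatricopeptide repeat protein, belong to the small subunit too and did not pass. Their log2 fold changes were 0.21 and 0.19 as deposited (limma adjusted p = 0.0795 and 0.109), against 0.43 and 0.27 once the length trend was taken out (adjusted p = 0.00756 and 0.0398). In all, 3 of these 5 genes were higher in KO.

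Other steps of mitochondrial translation were described by further lists, whose genes are longer (median lengths of 2566 nt for translation factors, 2246 nt for assembly and 3512 nt for aminoacyl-tRNA synthetases). Of 16 genes for translation factors and mRNA handling, 3 rose (18.8%, near the 18.3% of all genes tested) and 1 fell, with a median log2 fold change of 0.08. Tsfm, the exchange factor for elongation factor Tu, averaged 31.3 ± 1.16 FPKM in KO and 21.7 ± 1.05 FPKM in WT (SD, n = 3 each; 0.51, limma adjusted p = 0.000726), and did not pass with the length trend removed (0.16, adjusted p = 0.147). Slirp and Lrpprc, partners that stabilise mitochondrial mRNA, were called in opposite directions. Slirp averaged 71.5 ± 2.24 FPKM in KO and 49.2 ± 2.75 FPKM in WT (0.53, limma adjusted p = 0.000624) and turned to -0.08 with the length trend removed. Lrpprc averaged 6.47 ± 0.578 FPKM in KO and 8.51 ± 1.40 FPKM in WT (-0.34, limma adjusted p = 0.0397); this call did not hold with median-ratio scaling (adjusted p = 0.0522), with the length trend removed (-0.17, adjusted p = 0.289) or without KO replicate 2, KO replicate 4, WT replicate 2 or WT replicate 4 (0.0828, 0.124, 0.0885 and 0.16). Mtif3, an initiation factor, averaged 4.45 ± 0.291 FPKM in KO and 3.30 ± 0.207 FPKM in WT (0.34, limma adjusted p = 0.0141) and kept its call with the trend removed (0.56, adjusted p = 0.00505).

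Among 24 tested genes for ribosome assembly and rRNA modification, 8 (33.3%, beside 18.3% of all genes tested) rose and 0 fell, with a median log2 fold change of 0.18. With the length trend removed 3 were higher, beside 9.28% of all genes tested. Ddx28, an RNA helicase of large subunit assembly, averaged 7.01 ± 0.434 FPKM in KO and 4.76 ± 0.487 FPKM in WT (SD, n = 3 each; 0.48, limma adjusted p = 0.00369). Rbfa, which acts on the small subunit RNA, and Mpv17l2 had log2 fold changes of 0.36 and 0.43 (limma adjusted p = 0.00627 and 0.0021). Ddx28, Rbfa and Mpv17l2 did not pass with the length trend removed (limma adjusted p = 0.0641, 0.69 and 0.444). Malsu1, which keeps the large subunit from joining too early, averaged 2.40 ± 0.22 FPKM in KO and 1.69 ± 0.0862 FPKM in WT (0.34, limma adjusted p = 0.0193). With the trend removed it stood at 0.64 (adjusted p = 0.00505), and as deposited its call was lost without KO replicate 3, KO replicate 4, WT replicate 3 or WT replicate 4 (0.0519, 0.0651, 0.051 and 0.0539). A further list held mitochondrial aminoacyl-tRNA synthetases, which load tRNAs with amino acids, and also Qrsl1, Gatb and Gatc, which are not synthetases. Of its 18 tested genes, 1 rose and 0 fell, with a median of 0.06. That gene, Lars2, had a log2 fold change of 0.26 (limma adjusted p = 0.0289). As deposited its call was lost without KO replicate 2, KO replicate 3, KO replicate 4, WT replicate 3 or WT replicate 4 (0.0854, 0.0635, 0.05, 0.0875 and 0.0963). With the length trend removed Lars2 stood at 0.41 (limma adjusted p = 0.00666), and 2 of the list were higher, beside 9.28% of all genes tested. As deposited, 5.56% of the list rose, beside 18.3% of all genes tested and 6.92% of those over 2000 nt.

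Of 10 tested genes for mitochondrial transcription and its nuclear regulators, 0 rose and 3 fell, with a median log2 fold change of -0.07 and a median length of 3950 nt. The 3 are 30% of the list, near the 25.8% lower among all genes tested and the 33.4% lower among those over 2000 nt. Gabpa, the DNA-binding subunit of a nuclear respiratory factor, averaged 7.86 ± 0.322 FPKM in KO and 10.7 ± 0.667 FPKM in WT (SD, n = 3 each; -0.40, limma adjusted p = 0.00393). Yy1, a transcription factor, averaged 14.6 ± 1.02 FPKM in KO and 18.9 ± 0.505 FPKM in WT (-0.36, limma adjusted p = 0.00514). With the length trend removed these were -0.18 and -0.07 and did not pass (adjusted p = 0.0904 and 0.533). The third was Pprc1, a coactivator (-0.28, limma adjusted p = 0.0342; 0.02 with the trend removed), which did not hold with median-ratio scaling (adjusted p = 0.0528) or without KO replicate 2, KO replicate 4, WT replicate 2 or WT replicate 4 (0.0937, 0.107, 0.0848 and 0.116).

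Several of the mRNAs that the mitochondrial ribosome translates were also higher in KO. Of the 13 mitochondrially encoded mRNAs, 8 (61.5%) rose and 0 fell, with a median log2 fold change of 0.97 and a median length of 784 nt. The share higher was 18.3% of all genes tested and 72.3% of those up to 1000 nt. With the length trend removed 4 rose, beside 9.28% of all genes tested. The median as deposited is the value of ND6, which was not called (limma adjusted p = 0.215) and had 84.4, 63.6 and 445 FPKM in KO libraries. The quartiles were 0.65 and 1.77. Each KO library was above each WT library for 6 of the 13, beside 22.8% of all genes tested. ND2 and ND3 were called although their groups overlapped. COX1, which averaged 28380 FPKM in KO and 21710 FPKM in WT, was not called (limma adjusted p = 0.117). ND4 and ND5 were not called either (adjusted p = 0.0807 and 0.435). ATP6, a subunit of ATP synthase, averaged 870 ± 289 FPKM in KO and 213 ± 82.4 FPKM in WT (SD, n = 3 each; 2.03, limma adjusted p = 0.000694), and COX2, a core subunit of cytochrome oxidase, averaged 2048 ± 517 FPKM in KO and 685 ± 232 FPKM in WT (a ratio of means of 2.99, limma adjusted p = 0.000802). Their share of reads was 10.5, 11.98 and 12.7% in KO libraries against 6.03, 10.8 and 7.86% in WT libraries, and the groups overlapped.

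**Figure D5:**
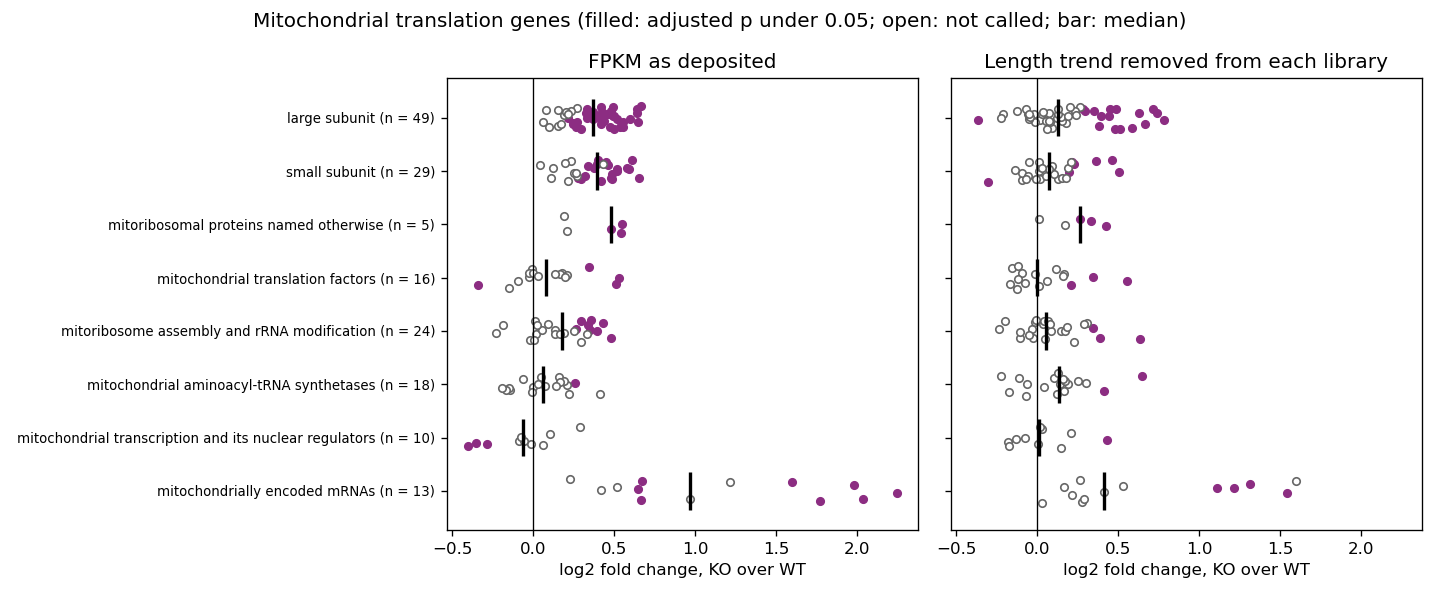
Log2 fold change, KO over WT, of each tested gene in 8 gene lists, as deposited (left) and with the length trend removed (right); filled points have an adjusted p under 0.05 and vertical bars are medians. As deposited the medians are 0.37 and 0.39 for the large and small subunit, 0.08 for translation factors and -0.07 for transcription and its regulators.

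The 2 gene families closest in function had greater shares of genes higher in KO. Of 80 tested cytosolic ribosomal protein genes, 79 were higher with a median log2 fold change of 0.63, and of 85 tested nuclear genes of the respiratory chain, 75 were higher with a median of 0.50. Their median lengths were 808 and 754 nt, shorter than the 1556 nt of the mitochondrial ribosomal protein genes. The share higher was 18.3% of all genes tested and 72.3% of those up to 1000 nt. With the length trend removed, 31 cytosolic ribosomal and 12 respiratory chain genes were higher and 0 of either were lower. Among all genes tested 9.28% were then higher and 9.42% lower. The medians were 0.19 and 0.01, beside the 0.10 of the mitochondrial ribosomal protein genes. No test of these differences between families was made.

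The members were spread over 17 chromosomes, with 11 genes on chromosome 11, 8 on chromosome 17 and 5 on chromosome 13, which also carries Ccl28 (119623819 to 119654359). Mrps30 lies nearest to Ccl28, at 118380110 to 118387252, a distance of 1.24 Mb. Its protein is part of the large subunit, and it had 15.9, 16.9 and 14.7 FPKM in KO libraries against 11.6, 11.7 and 11.9 FPKM in WT libraries, without overlap (log2 fold change 0.40, limma adjusted p = 0.00321; 0.15 and adjusted p = 0.231 with the length trend removed). The next members on that chromosome, Mrps36 and Mrps27, were 18.9 and 20.2 Mb away, and neither passed the test (adjusted p = 0.0956 and 0.0962). The other members there, Mrpl36 and Mrpl32, were 46.3 and 105 Mb away, and both rose (0.49 and 0.66, limma adjusted p = 0.0016 and 0.00159). Of the 78 genes, 25 overlap the span of another gene, and whether reads were counted by strand is not given in the sources used here. Among these 19 were higher in KO, and among the 53 without such an overlap 38 were higher, with a median log2 fold change of 0.39.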

How the data were processed

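The authors deposited FPKM values of 20893 genes in 6 libraries. A second table deposited by the authors holds, per the file headers, group means of normalized signal, fold changes as a ratio, log2 fold changes, p-values and q-values for 17686 genes. Libraries were made with a stranded mRNA kit, per the labels' protocols. Per the submitters' processing notes, which give neither role nor order, the tools were DESeq2 1.22.1, featureCounts 1.6.2, HISAT2 2.1.0, fastp 0.19.3, GATK 4.0.11.0, Cufflinks and StringTie 1.3.4d, with the mm10 build.

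Genes that reached FPKM 1 in 3 or more libraries entered limma 3.58.1 (R 4.3.3, trend, genotype as the only term) on log2(FPKM + 1). P-values were adjusted over all 10806 genes by Benjamini-Hochberg, with a threshold of 0.05. Fold changes on this scale understate changes of low genes. Whole reads were recovered from FPKM and the group means: for values no higher than 1000 reads, 100.0% came within 0.05 of a whole number, and 3207 genes outside the second table had none. They gave depth and implied length. limma-voom on these reads called 55 members. For the length trend, the deviation of log2(FPKM + 1) from the mean of the gene over all 6 libraries was taken in each library. It was fitted on log2 length with lowess (span 0.3) and the fit removed. The trend was not fitted again where a library was left out. The limma step was first tested on simulated data. Coordinates came from the RefSeq annotation of GRCm38.p6, where 20334 gene IDs and all 78 members matched. The other steps used scipy 1.17.1, pandas 2.3.3, numpy 2.4.6 and, for figures, matplotlib 3.10.9 in Python 3.11.15.

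The members and the gene lists were chosen with earlier results of these data known, and the classes by bacterial homologue and by length were set afterwards. Named were, per subunit, the 6 higher and 4 lower called genes with the smallest p, the 3 with the highest mean FPKM, the 2 with the largest p, a fixed set (Mrps18a, Mrps18b, Mrps18c, Mrps30, Mrps36, Mrpl12 and the proteins with other names), and up to 4 genes of each other list by p.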

Additional observations from a re-analysis of the deposited data

How the results depend on the processing

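With median-ratio scaling, quantile normalization, no filter, a minimum FPKM of 5, 0.1 as the pseudocount, limma-voom on recovered reads and each library left out, the members higher in KO numbered 46 to 67 and 0 were lower; 43 of the 57 kept their call without any one library. Among these counts and medians, removing the length trend had the greatest effect: 22 higher and 2 lower, 16 and 1 in the large subunit and 6 and 1 in the small, with median log2 fold changes of 0.129 and 0.0725. The large-over-small ratios were then 1.77 in KO and 1.75 in WT; assigning subunits by place moved them more, to 2.01 in KO and 2.04 in WT. With single libraries left out and the trend removed, 13 to 18 members were higher and 0 to 3 lower, and 12 to 17 of those over 2000 nt were higher. With the trend removed 20 of the 78 members changed sign, among them Mrpl42 (-0.0168), Mrps22 (-0.30), Mrps36 (-0.047) and Mrpl53 (-0.36), as did Slirp (-0.0756) and Pprc1 (0.018). With single libraries left out, Mrpl1 ranged between -0.00993 and 0.205 and Mrps22 between -0.011 and 0.093, both negative without KO replicate 4 and not called. The length classes, and the settings that combine the trend with other choices, were chosen after seeing the data. Same-numbered samples did not deviate together (correlations of -0.195, -0.349 and -0.222), and KO and WT samples of unlike number had correlations of 0.00248 to 0.199. Deviations were centred within groups of 3, which ties these correlations to one another, so they cannot show whether the numbers pair samples. A replicate block called 48 members higher, and 13 higher and 1 lower with the trend removed. Members had 278 to 4145 reads per library, and what depth limits was not tested.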
